A study of Mus musculus with 8 samples.

Results

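Voltage-gated calcium channel alpha-1 subunits are the pore-forming proteins of the channels that let calcium into a neuron when its membrane is depolarised. Here 8 of their genes, Cacna1a, Cacna1b, Cacna1c, Cacna1d, Cacna1e, Cacna1g, Cacna1h and Cacna1i, were taken by gene symbol from a count table of 39017 genes, and all 8 passed the filter on low counts that left 19494 genes for testing. RNA came from fluorescent cells sorted out of hand-dissected cochlear nuclei, the first auditory relay in the hindbrain, of C57BL/6 mouse embryos at E18.5. There were 4 mutant and 4 wild type libraries. The mutants carried Math1::Cre, Rosa tdTomato and floxed alleles of the hindbrain patterning factors Hoxa2 and Hoxb2. Their sample titles read Hoxa2+/fl; Hoxb2fl/fl, whereas the design text of the series gives both genes as fl/fl. Wild types carried Math1::Cre and Rosa tdTomato alone, so Cre and reporter were common to both groups. Math1, also called Atoh1, drives Cre in the rhombic lip lineage, and only cells of that lineage were sorted. Each library held 30000 cells pooled from 3 littermates, and each came from a different mother.

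The alpha-1 subunit sets the electrical class of the channel. T-type channels (Cacna1g, Cacna1h, Cacna1i) open at small depolarisations, close quickly and support burst firing and rebound spikes. L-type (Cacna1c, Cacna1d), P/Q-type (Cacna1a), N-type (Cacna1b) and R-type (Cacna1e) channels need stronger depolarisation. P/Q-type and N-type channels trigger transmitter release at nerve terminals, and L-type channels couple activity to gene expression and, in the case of Cacna1d, drive release from inner hair cells. High-voltage-activated pores are assembled with beta and alpha-2-delta subunits, which T-type pores do not need.

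The classes can be told apart in the gene sequence at the selectivity filter, where each of the 4 pore loops contributes an acidic residue. The stretch around that residue in pore loop IV is shown for all members because it is the site that divides the T-type genes from the others. The sequences are 27 bases of the longest open reading frame in GENCODE M21 transcripts, written 5′ to 3′ on the coding strand, with the filter codon in capitals.
Cacna1g: gtctccactggtGACaactggaatggt
Cacna1h: gtgtccactgggGACaactggaatggg
Cacna1i: gtctccacaggcGATaactggaatggg
Cacna1a: agcgccacaggaGAAgcgtggcacaac
Cacna1b: agtgccactgggGAGgcctggcatgag
Cacna1e: agtgccacggggGAGgcttggcaggag
Cacna1c: tgtgccaccggaGAGgcctggcaggac
Cacna1d: tgtgcaacagggGAAgcctggcaggag
The capitals are an aspartate codon in the 3 T-type genes and a glutamate codon in the other 5. The same division was found in pore loop III. In mm10 the stretches lie at chr11:94416415-94416441 (minus strand, exon 32) in Cacna1g, chr17:25377771-25377797 (minus, exon 31) in Cacna1h, chr15:80388485-80388511 (plus, exon 31) in Cacna1i and chr8:84611599-84611625 (plus, exon 35) in Cacna1a. Those of Cacna1b, Cacna1e, Cacna1c and Cacna1d lie at chr2:24635213-24635239 (minus, exon 36), chr1:154425975-154426001 (minus, exon 37), chr6:118614050-118614076 (minus, exon 36) and chr14:30075944-30075970 (minus, exon 36). They are reference sequence and were not read from the samples.

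Total counts ranged from 26299105 to 51118195 in mutant and from 24789043 to 40050010 in wild type libraries. Hoxb2 stood at 3.77 to 6.81 CPM (read counts scaled to library size, with TMM scaling between libraries) in mutant libraries and at 37.4 to 46.6 CPM in wild type libraries, and it fell in mutants (log2 fold change -3.00, edgeR adjusted p = 3.76e-05). Hoxa2 stood at 11.1 to 48.0 CPM in mutant and at 30.8 to 55.1 CPM in wild type libraries, and mutant 2, 48.0 CPM, lay inside the wild type range (log2 fold change -0.70, edgeR adjusted p = 0.506). All 13 markers of Atoh1-lineage excitatory cells were detected, with summed levels of 5202 to 6827 CPM in mutant and 5064 to 6056 CPM in wild type libraries. Zic1 alone made up 2585 to 4222 CPM in mutant and 2182 to 3200 CPM in wild type libraries. Within this list 6 of the 13 had an unadjusted edgeR p below 0.05, beside 12.5% of all tested genes. A positive log2 fold change was found for 4 of the 13, beside 48.4% of all tested genes. At an edgeR adjusted p below 0.05 there was 1 of the 13, beside 0.359% of all tested genes. This was Nhlh1, which fell in mutants, at 40.4 to 56.1 CPM in mutant and 81.7 to 93.7 CPM in wild type libraries (edgeR adjusted p = 0.00603). The part of these marker differences in the members' values was not tested. Choroid plexus and ependyma markers summed to 462 to 624 CPM in mutant and 502 to 823 CPM in wild type libraries. Nearly all of this was Otx2, at 450 to 609 CPM in mutant and 490 to 810 CPM in wild type libraries. Ttr, Foxj1 and Folr1 each stood at no more than 9.98 CPM in any library. Astrocyte and radial glia markers summed to 194 to 460 CPM in mutant and 306 to 425 CPM in wild type libraries. Oligodendrocyte lineage markers summed to at most 102 CPM in any library. Inhibitory neuron markers summed to at most 116 CPM in any library, and microglial, endothelial, mural and erythroid markers each to at most 22.7 CPM. Below an unadjusted p of 0.05 lay 3 of 7 tested inhibitory neuron and 3 of 6 microglial markers. Also below it lay 1 of 6 endothelial, 0 of 5 mural and 1 of 2 erythroid markers, beside 12.5% of all tested genes. Of the 7 inhibitory neuron markers 6 had a positive log2 fold change. The microglial C1qa passed, lower in mutants, at 0.108 to 0.350 CPM against 0.858 to 3.65 CPM in wild types (edgeR adjusted p = 0.0115). The part of these markers in the members' values was not tested. The erythroid markers Hba-a1 and Hba-a2 had no count in any library. Mutant 1, wild type 5 and wild type 6 lay at the low end of the first principal component, mutants 2 to 4 at its high end and wild types 7 and 8 between, and mutant 3 lay lowest on the second. The libraries at the low end had the 3 highest sums of 6 markers of dividing cells, at 745 CPM in mutant 1, 1013 in wild type 5 and 1004 in wild type 6, against at most 460 CPM in the others.

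Of the 8 members, Cacna1g rose in mutant cells and the other 7 did not pass (edgeR quasi-likelihood test, Benjamini-Hochberg adjusted p below 0.05 over all genes). By the same rule 0.359% of all tested genes passed in either direction, and 0.144% as higher. Cacna1g (ENSMUSG00000020866, chromosome 11, 94408391 to 94474198, mm10) encodes the T-type channel of bursting neurons in thalamus, inferior olive and deep cerebellar nuclei. It stood at 79.0, 87.3, 64.0 and 88.0 CPM in mutant 1 to 4, against 31.4, 23.4, 40.0 and 35.1 CPM in wild type 5 to 8. Every mutant library lay above every wild type library, with a gap between mutant 3 and wild type 7. Such separation was found for 1 of the 8 members, beside 6.17% of all tested genes in either direction and 3.23% with mutants higher. The underlying counts were 2413, 2217, 3294 and 3258 in mutant 1 to 4, and 1220, 600, 1400 and 1386 in wild type 5 to 8. The means were 79.6 ± 11.2 CPM in mutant and 32.5 ± 7.03 CPM in wild type libraries (SD, n = 4 each). Its log2 fold change was 1.29 (SE 0.165, 95% interval 0.93 to 1.65, edgeR adjusted p = 0.00619), a 2.45-fold difference that ranked 14th of all tested genes by p. An exact permutation test, two-sided, gave p = 0.0286, the smallest that 4 against 4 libraries allow. In bulk RNA more cells with Cacna1g and more Cacna1g RNA per cell cannot be told apart.

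**Figure D1:**
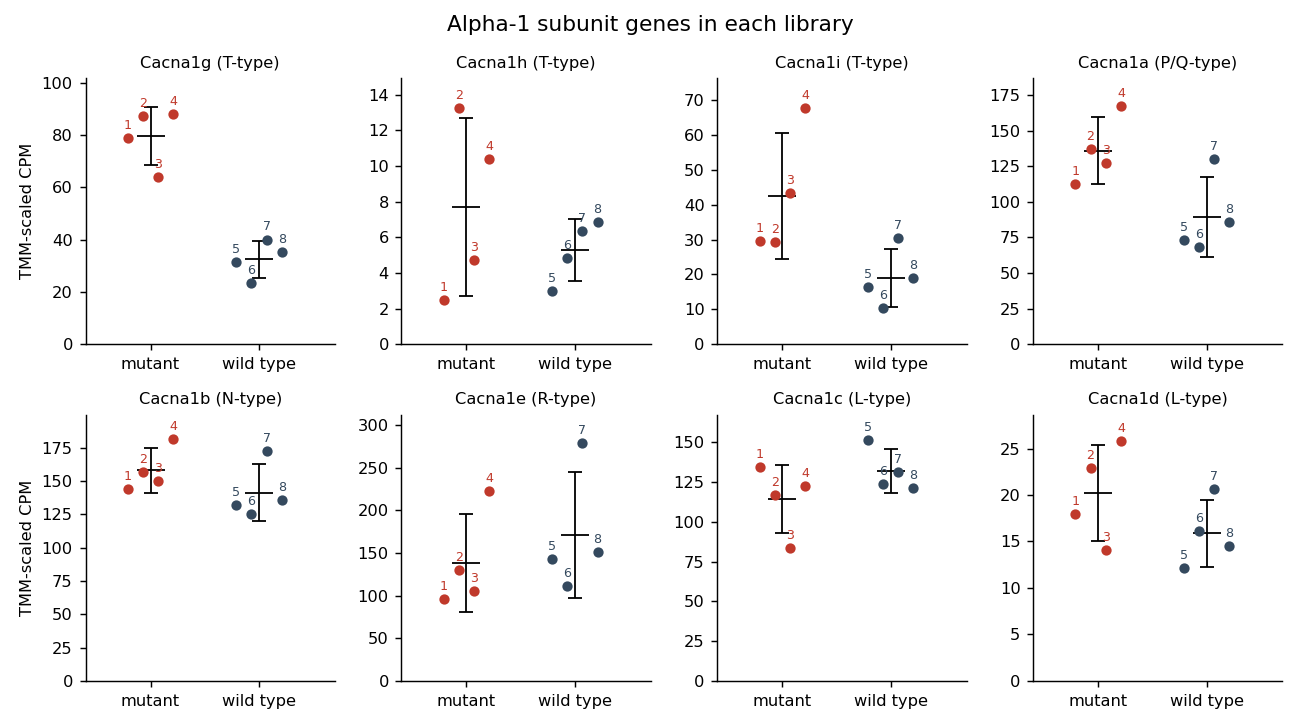
Level of each alpha-1 gene (TMM-scaled CPM, linear axis from 0) in mutant and wild type libraries, with the library number beside each point and mean ± SD as bars (n = 4 each). Groups do not overlap for Cacna1g alone, with mutants at 64.0 CPM or more and wild types at 40.0 CPM or less.

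Cacna1i (ENSMUSG00000022416, chromosome 15), the T-type gene known from thalamic reticular neurons, had a fold change close in size to that of Cacna1g but more scatter. Its level was 29.7, 29.4, 43.3 and 67.7 CPM in mutant 1 to 4, against 16.4, 10.5, 30.4 and 19.0 CPM in wild type 5 to 8. Mutant 1 and mutant 2 lay just under wild type 7, and the other mutants lay above all wild types. On the log2 scale the difference was 1.16 (SE 0.355, 95% interval 0.36 to 1.95), with an edgeR adjusted p of 0.252 and an unadjusted p of 0.00939. DESeq2 called it (log2 fold change 1.16, adjusted p = 0.0154), and limma-voom did not (adjusted p = 0.18).

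Cacna1h (ENSMUSG00000024112, chromosome 17), the T-type gene prominent in sensory neurons, was the member with the lowest level per kilobase. It stood at 2.49, 13.3, 4.70 and 10.4 CPM in mutant 1 to 4, against 3.01, 4.83, 6.38 and 6.88 CPM in wild type 5 to 8. The mutants fell on both sides of the wild type range, with mutant 1 below it and mutants 2 and 4 above. Mutant 1 held 76 counts, for which the exact Clopper-Pearson 95% interval ran from 1.97 to 3.13 CPM, without TMM scaling and for counting error only. Mutant 2 held 337 counts, with an interval of 11.5 to 14.3 CPM, so the spread among mutants was larger than counting error. Mutant over wild type it gave a log2 fold change of 0.54 (SE 0.474, 95% interval -0.52 to 1.60, edgeR adjusted p = 0.658).

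Among the high-voltage-activated genes none of 5 passed by edgeR, DESeq2 or limma-voom with or without quality weights. Over all tested genes DESeq2 called 2.55%, limma-voom 0.354% and limma-voom given quality weights 1.2%. At an unadjusted edgeR p below 0.05 there was 1 of these 5, Cacna1a, and there were 2 of the 3 T-type genes, against 12.5% of all tested genes. Cacna1a (ENSMUSG00000034656, chromosome 8), the P/Q-type pore of fast central synapses, stood at 113, 137, 127 and 168 CPM in mutant 1 to 4, against 73.1, 68.5, 130 and 85.7 CPM in wild type 5 to 8. Wild type 7 lay among the mutants, and the other 3 wild types lay below all mutants. The log2 fold change was 0.61 (SE 0.198, 95% interval 0.17 to 1.04, edgeR adjusted p = 0.259), and without wild type 7 it was 0.85 and passed (adjusted p = 0.0467). The antisense gene Gm16183 overlaps Cacna1a and stood at 12.9 CPM in mutant and 8.23 CPM in wild type libraries, and without strand information reads of the shared part cannot be assigned.

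Cacna1b (ENSMUSG00000004113, chromosome 2), the N-type pore, had a coefficient of variation of 10.5% among mutants, the lowest of the 8 members there, and of 14.9% among wild types, where that of Cacna1c was lower at 10.3%. Its level was 144 to 182 CPM in mutant and 125 to 172 CPM in wild type libraries, with 3 of 4 mutants inside the wild type range. Between groups Cacna1b differed by 0.16 on the log2 scale (SE 0.124; adjusted p = 0.611 by edgeR), and its 95% interval of -0.11 to 0.43 excludes a difference of the size seen for Cacna1g. Cacna1e (ENSMUSG00000004110, chromosome 1), the R-type pore, varied most of the high-voltage-activated genes. It stood at 96.3, 130, 105 and 222 CPM in mutant 1 to 4, against 143, 111, 278 and 151 CPM in wild type 5 to 8. Its log2 fold change was -0.30 (SE 0.338, 95% interval -1.07 to 0.46, edgeR adjusted p = 0.73), and it turned to 0.04 without wild type 7.

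Both L-type genes had overlapping groups. Cacna1c (ENSMUSG00000051331, chromosome 6), the main L-type pore of brain and heart, stood at 134, 117, 83.8 and 122 CPM in mutant 1 to 4, against 151, 124, 131 and 121 CPM in wild type 5 to 8. Mutant 3 was the lowest of all libraries. The log2 fold change was -0.21 (SE 0.142, 95% interval -0.52 to 0.10, edgeR adjusted p = 0.56). Cacna1d (ENSMUSG00000015968, chromosome 14), the L-type pore required for hearing, stood at 14.1 to 25.8 CPM in mutant and at 12.1 to 20.7 CPM in wild type libraries, with 0.35 (SE 0.207, 95% interval -0.10 to 0.80, edgeR adjusted p = 0.51). Cacna1c and Cacna1d each overlap other genes, among them Dcp1b and Dcp1a, at 30.1 and 33.0 CPM in mutant and 32.3 and 41.1 CPM in wild type libraries. The 2 remaining alpha-1 genes, the retinal Cacna1f and the skeletal muscle Cacna1s, stayed at or under 3.05 CPM in every library and did not pass (edgeR adjusted p 0.984 and 0.601).

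A positive log2 fold change was found for 6 of the 8 members, beside 48.4% of all tested genes. The median was 0.44 over the 8 members, 1.16 over the 3 T-type genes and 0.16 over the other 5, beside -0.01 over all genes tested. Whether the T-type genes differ as a class from the others was not tested, since the members were chosen with results known.

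Levels of different genes were compared per kilobase of the deposited gene length, as CPM per kilobase. In mutant cells the order from the top was Cacna1b at 15.9 ± 1.67, Cacna1c at 13.6 ± 2.57, Cacna1a at 11.9 ± 2.04, Cacna1e at 10.9 ± 4.53, Cacna1g at 7.85 ± 1.10, Cacna1i at 4.31 ± 1.83, Cacna1d at 2.18 ± 0.56 and Cacna1h at 0.79 ± 0.51 CPM per kilobase (SD, n = 4). In wild type cells it was Cacna1c at 15.8 ± 1.62, Cacna1b at 14.2 ± 2.12, Cacna1e at 13.5 ± 5.81, Cacna1a at 7.82 ± 2.45, Cacna1g at 3.20 ± 0.69, Cacna1i at 1.93 ± 0.85, Cacna1d at 1.72 ± 0.39 and Cacna1h at 0.54 ± 0.18 CPM per kilobase (SD, n = 4). These are orders of group means. Neighbours that change places from library to library, as Cacna1b and Cacna1c did in both groups, have no settled order. Overlap of mean ± SD ranges does not decide this, since both genes are measured in the same libraries. By deposited length Cacna1e lay above Cacna1a in every wild type library, although those ranges overlap. By deposited length Cacna1g followed 4 high-voltage-activated genes in both groups and Cacna1h came last. The deposited length equalled the summed exon length of GENCODE M21 for 5 of the 8 members and was shorter for Cacna1c, Cacna1d and Cacna1e. With the M21 length Cacna1c stood at 5.39 CPM per kilobase in mutant and 6.22 in wild type cells. Cacna1e then stood at 5.49 CPM per kilobase in mutant and 6.77 in wild type cells. Both were then below Cacna1a in either group, and below Cacna1g in mutant but not in wild type cells.

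The makeup of the alpha-1 set within each library needs no scaling between libraries. The T-type genes together made up 18.1%, 19.2%, 19.5% and 19.7% of the summed alpha-1 level in mutant 1 to 4, against 9.14%, 8.10%, 10.1% and 11.02% in wild type 5 to 8. The mean share was 19.1 ± 0.69% in mutant and 9.59 ± 1.25% in wild type libraries (SD, n = 4 each), a difference of 9.56 percentage points with no overlap. These shares depend on the gene lengths used. With the M21 length the mean shares were 24.2% in mutant and 13.4% in wild type libraries. The summed level of the other 5 genes was 54.5 ± 9.50 CPM per kilobase in mutant and 53.0 ± 10.8 in wild type libraries, a difference smaller than the spread. The summed T-type level was 13.0 ± 2.59 CPM per kilobase in mutant and 5.68 ± 1.62 in wild type libraries. Cacna1g was the larger part of this sum, at 52.3% to 70.5% of the T-type level in mutant and 51.4% to 61.1% in wild type libraries, ranges that overlap. Cacna1i made up 4.42% to 8.13% of the alpha-1 level in mutant and 2.23% to 4.05% in wild type libraries, and Cacna1a 16.2% to 19.4% in mutant and 11.6% to 14.9% in wild type libraries. For both these shares the groups did not overlap, although their levels did. Shares add to a fixed total, so a higher share of one gene lowers those of the others.

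**Figure D2:**
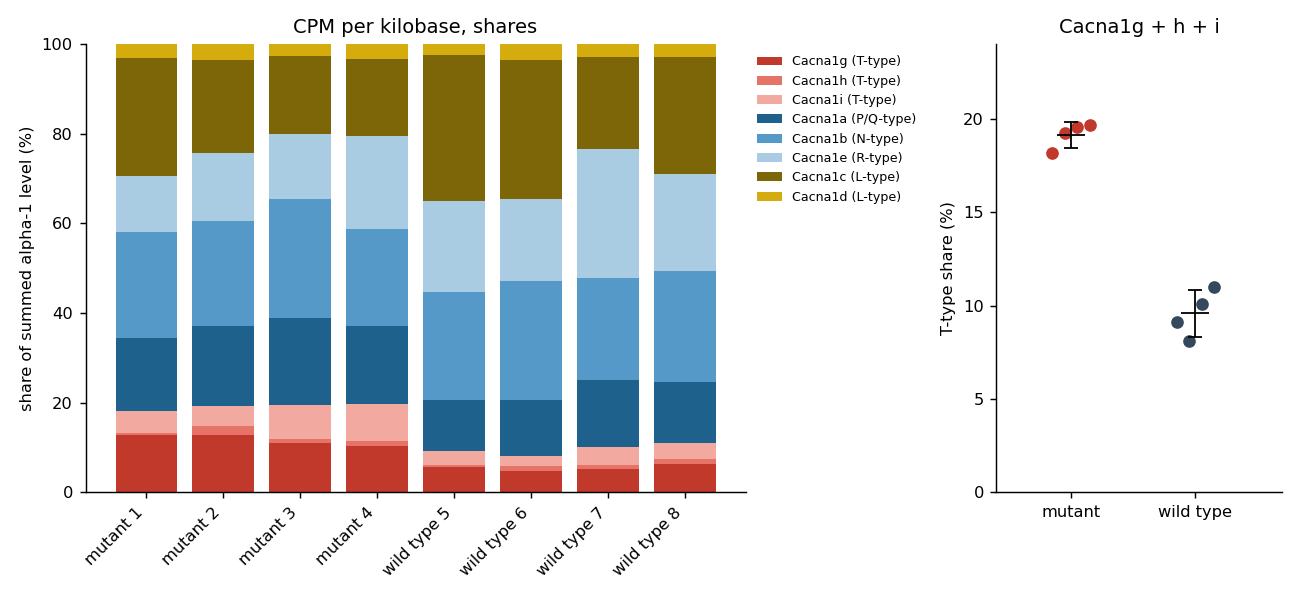
Left, share of each alpha-1 gene in the summed level of the 8 genes (CPM per kilobase of deposited length, %) in every library, T-type genes at the bottom. Right, the T-type share on its own with mean ± SD (n = 4 each), between 18.1% and 19.7% in mutant and between 8.10% and 11.02% in wild type libraries.

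The log2 ratio of Cacna1g to each other member shows the same contrast gene by gene. Against Cacna1e it was -0.40 ± 0.44 in mutant and -2.01 ± 0.31 in wild type libraries, and against Cacna1c -0.79 ± 0.17 in mutant and -2.32 ± 0.34 in wild type libraries (SD, n = 4 each). The ratios to Cacna1a, Cacna1b and Cacna1d were also higher in every mutant than in every wild type library, with mean differences of 0.67, 1.14 and 0.97 on the log2 scale. The ratio to Cacna1i was 0.94 ± 0.60 in mutant and 0.80 ± 0.32 in wild type libraries, and those to Cacna1i and Cacna1h overlapped between the groups. These ratios are descriptions, with no test, and share Cacna1g.

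In all, 6 members, Cacna1a, Cacna1b, Cacna1d, Cacna1e, Cacna1g and Cacna1i, were highest in mutant 4 among mutants and highest in wild type 7 among wild types. Markers of other cells and stages also varied within the groups. The sum of 5 neuron markers (Tubb3, Elavl4, Snap25, Stmn2, Map2) was 2755, 3848, 4114 and 3978 CPM in mutant 1 to 4, against 2663, 2697, 3779 and 3632 CPM in wild type 5 to 8. It was low in mutant 1, wild type 5 and wild type 6, the libraries rich in dividing-cell markers. Mutant 1 held 79.0 CPM of Cacna1g, between the values of the other mutants, whereas wild types 5 and 6 held less Cacna1g than wild types 7 and 8. Mutant 1 lay above wild types 7 and 8, whose neuron sums were higher than its own. Without mutant 1, wild type 5 and wild type 6 the log2 fold change of Cacna1g was 1.09 (edgeR adjusted p = 0.0152). For Cacna1i and Cacna1a, wild type 7 reached the mutant levels, and without the same 3 libraries their log2 fold changes were 0.93 and 0.42 (edgeR adjusted p 0.299 and 0.496). The part of neuron content in these differences was not tested.

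**Figure D3:**
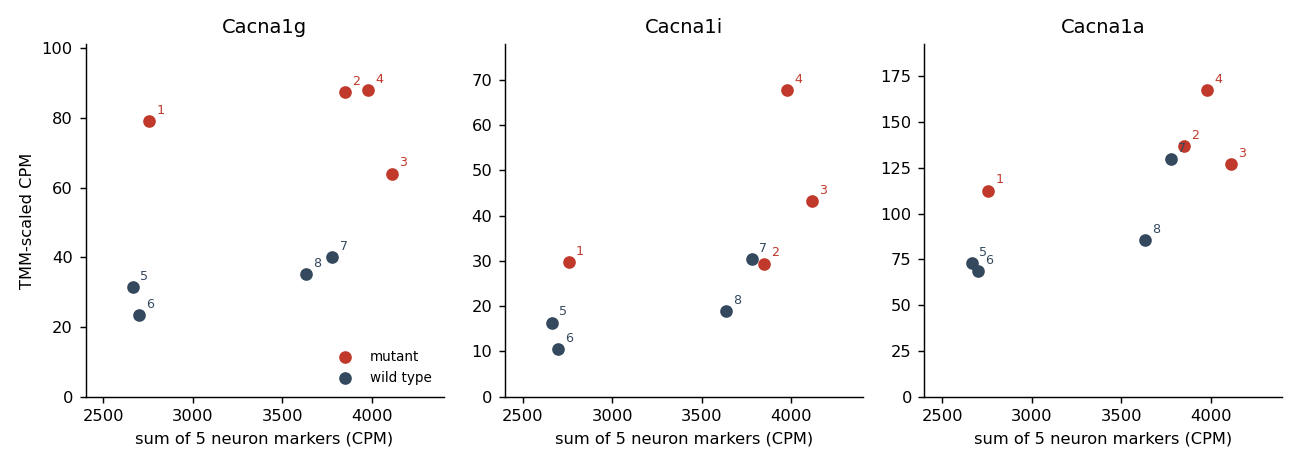
Level of Cacna1g, Cacna1i and Cacna1a (TMM-scaled CPM, y axis from 0) against the sum of 5 neuron markers (CPM, x axis) in each library, with its library number. All Cacna1g points of mutants, 64.0 CPM or more, lie above those of wild types at any neuron sum, whereas Cacna1i and Cacna1a of wild type 7 reach mutant levels.

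The subunits that accompany the pore did not pass in either direction (edgeR). Over all tested genes 0.359% passed and 12.5% had an unadjusted p below 0.05. Of 4 tested beta subunits, which bring high-voltage-activated pores to the membrane, 0 passed and 0 had an unadjusted p below 0.05. Cacnb3 stood at 71.2 ± 7.79 CPM in mutant and 68.1 ± 4.66 CPM in wild type libraries (SD, n = 4 each), with a log2 fold change of 0.06 and a 95% interval of -0.17 to 0.30. The smallest p among them belonged to Cacnb2 and Cacnb4, with log2 fold changes of 0.31 (SE 0.183, edgeR adjusted p = 0.513) and 0.13 (SE 0.142, edgeR adjusted p = 0.713). Of 4 alpha-2-delta subunits, the extracellular partners that bind gabapentin in the case of Cacna2d1 and Cacna2d2, 0 passed and 1 had an unadjusted p below 0.05. Cacna2d1 stood at 1031 ± 124 CPM in mutant and 1139 ± 139 CPM in wild type libraries, a log2 fold change of -0.14 (95% interval -0.42 to 0.14). Cacna2d3, at 1.82 CPM in mutant and 1.10 CPM in wild type libraries, had 0.72 (SE 0.313, edgeR adjusted p = 0.376), and Cacna2d4 had -0.47 (SE 0.358, edgeR adjusted p = 0.604). Of the 8 genes of the gamma family, most of which also regulate AMPA receptors, 6 were tested, 0 passed and 1 had an unadjusted p below 0.05. That gene was Cacng4, at 82.5 ± 7.46 CPM in mutant and 65.5 ± 7.53 CPM in wild type libraries, which is 0.33 as log2 fold change (SE 0.114; adjusted p = 0.276 by edgeR). Cacng2 had 0.16 (SE 0.154), and Cacng5 0.76 (SE 0.425). Cacna2d4 overlaps Lrtm2, at 17.5 CPM in mutant and 12.1 CPM in wild type libraries, and Cacnb2, Cacnb4, Cacna2d3, Cacng2 and Cacng4 also overlap other genes. In the beta, alpha-2-delta and gamma lists DESeq2 and both limma-voom fits called 0 genes.

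**Figure D4:**
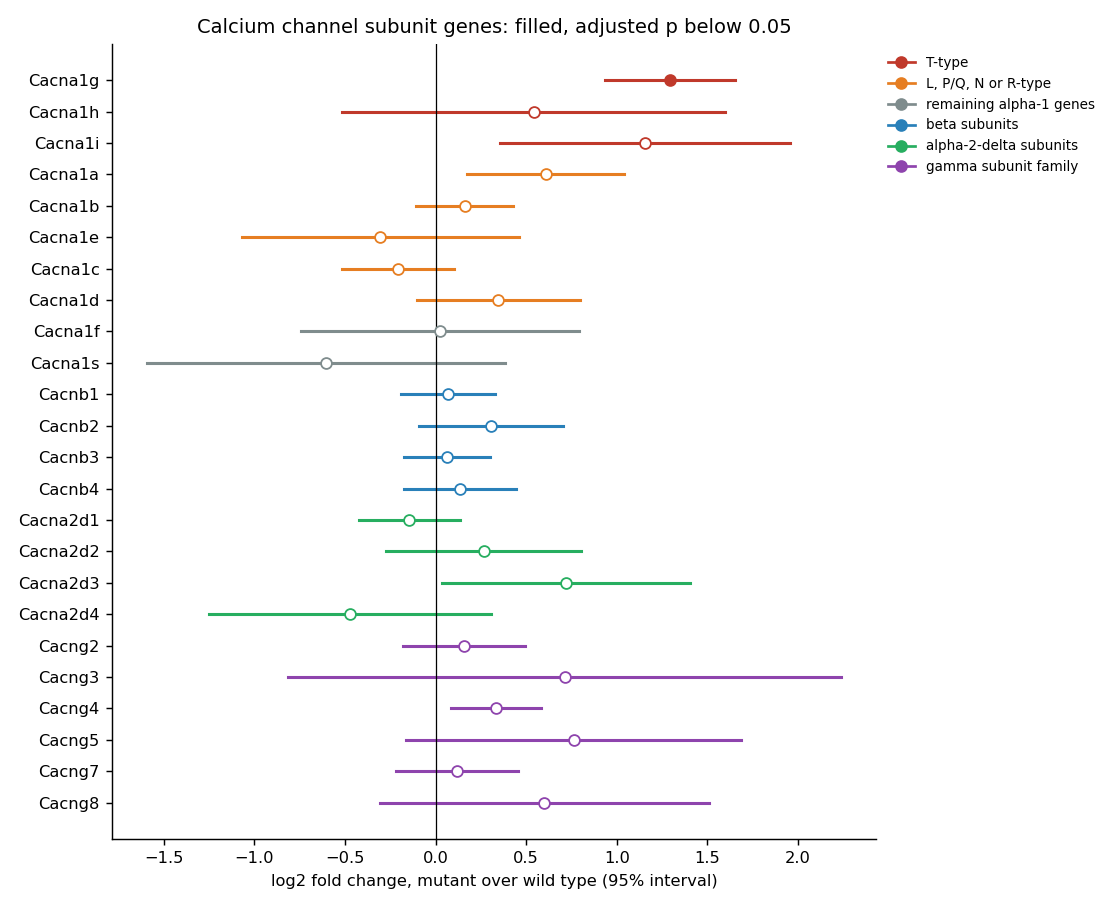
Log2 fold change, mutant over wild type, with its 95% interval for the 8 alpha-1 genes, Cacna1f, Cacna1s and the tested beta, alpha-2-delta and gamma genes, coloured by class. The filled point, Cacna1g at 1.29, is the gene past an adjusted p of 0.05.

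Across the 9 lists of channel partners and other calcium handling genes, 71 of 77 genes were tested, 0 rose and 1 fell by edgeR, beside 0.215% of all tested genes that fell. At an unadjusted p below 0.05 there were 19 of the 71, beside 12.5% of all tested genes, while the number called was 7 by DESeq2, 1 by limma-voom and 2 once quality weights were added. Over all tested genes these 3 fits called 2.55%, 0.354% and 1.2%. Their median log2 fold change was 0.16. The gene that fell was Kcnn1, a small-conductance potassium channel that calcium opens. It stood at 5.37, 6.38, 3.77 and 5.70 CPM in mutant 1 to 4, against 16.3, 8.57, 16.9 and 13.6 CPM in wild type 5 to 8. The groups did not overlap, with wild type 6 the closest to the mutants. The log2 fold change of Kcnn1 was -1.39 (SE 0.234, 95% interval -1.90 to -0.88, edgeR adjusted p = 0.0278). The call ended without mutant 2, 3 or 4 or wild type 5, 7 or 8, with adjusted p between 0.0623 and 0.105. A gene on the opposite strand overlaps Kcnn1 and stood at 0.897 CPM in mutant and 2.01 CPM in wild type libraries. The other 5 tested calcium-activated potassium channel genes did not pass by edgeR. Of the 6 tested, Kcnn1 included, 3 had an unadjusted edgeR p below 0.05. DESeq2 called 2 of the 6, limma-voom 1 and its fit given quality weights 2, with Kcnn1 called each time.

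Among 9 tested regulators of calcium channels none passed by edgeR. An unadjusted p below 0.05 was found for 3, and 1 passed by DESeq2. Over all tested genes edgeR called 0.359% and DESeq2 2.55%, and 12.5% had an unadjusted edgeR p below 0.05. Klhl1, an actin-binding protein reported to raise calcium channel currents, stood at 5.04 to 9.30 CPM in mutant and 11.2 to 26.7 CPM in wild type libraries, which is -1.34 as log2 fold change (SE 0.285), with an adjusted p of 0.0884 by edgeR and 0.000533 by DESeq2. The calcium sensor Cabp1 stood at 11.3 to 18.6 CPM in mutant and 7.17 to 10.3 CPM in wild type libraries, which is 0.62 (SE 0.184; adjusted p = 0.213 by edgeR). Of 15 active zone genes, whose products hold presynaptic calcium channels near vesicles, 14 had a positive log2 fold change, beside 48.4% of all tested genes, none passed by edgeR and 2 passed by DESeq2. For 5 of the 15 the unadjusted edgeR p lay below 0.05, beside 12.5% of all tested genes. Rims4 was at 13.9 ± 4.55 CPM in mutant and 6.20 ± 2.48 CPM in wild type libraries (log2 fold change 1.16, edgeR adjusted p = 0.164), and Rims1 at 102 ± 23.5 CPM in mutant and 59.3 ± 16.2 CPM in wild type libraries (0.78, edgeR adjusted p = 0.181). Without mutant 1 both passed, at 1.31 for Rims4 and 0.93 for Rims1 (edgeR adjusted p 0.0461 and 0.0201). That fit called 544 of 20124 tested genes, against 70 of 19494 with all libraries. Each of the 2 genes passed in 2 of 18 alternatives, DESeq2 and the fit without mutant 1.

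Of 21 genes for calcium stores, pumps, exchangers and store-operated entry none passed by edgeR and 2 passed by DESeq2, with 5 at an unadjusted edgeR p below 0.05. The shares of all tested genes were 0.359% by edgeR, 2.55% by DESeq2 and 12.5% at that unadjusted p. The store-operated pore Orai1 stood at 6.02 to 6.93 CPM in mutant and 8.33 to 10.3 CPM in wild type libraries, which is -0.55 (SE 0.151; adjusted p = 0.178 by edgeR). The plasma membrane calcium pump Atp2b3 had 0.84 (SE 0.251, edgeR adjusted p = 0.225). In the complex of the sodium leak channel Nalcn, a relative of the alpha-1 family, 0 of 4 genes passed by edgeR, DESeq2 or limma-voom and 1 had an unadjusted p below 0.05. Fam155a, its auxiliary subunit, had 0.65 (SE 0.233) and Unc79 0.23 (SE 0.125). Without mutant 1 Fam155a had 0.83 and passed (edgeR adjusted p = 0.0359), in a fit that called 544 of 20124 tested genes. It passed in 1 of 18 alternatives.

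Cacna1g lies on chromosome 11, 1.88 Mb from the targeted gene Hoxb2, so the 2 groups differ in an engineered allele on the same chromosome. Of 42 tested genes between them 0 passed by edgeR, 5 had an unadjusted p below 0.05, 21 had a positive log2 fold change, and the median was 0.00. Over all tested genes these shares were 0.359%, 12.5% and 48.4%, so the counts do not set the interval apart from the other genes. DESeq2 called 1 of the 42 and limma-voom with or without quality weights 0. Within 100 kb of Cacna1g lay the whole of 5 tested genes, Ankrd40, Abcc3, Epn3, Mycbpap and Rsad1, with log2 fold changes of -0.13, 0.06, -0.29, 0.49 and -0.92. Of these Rsad1, at 2.40 CPM in mutant and 4.57 CPM in wild type libraries, had non-overlapping groups in the direction opposite to Cacna1g (edgeR adjusted p = 0.144). Groups did not overlap for 6.17% of all tested genes. DESeq2 called 1 of these 5 neighbours, and limma-voom with or without quality weights called 0. The labels do not give the extent of the chromosome segment carried with the floxed allele, and its part in the difference was not tested.

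**Figure D5:**
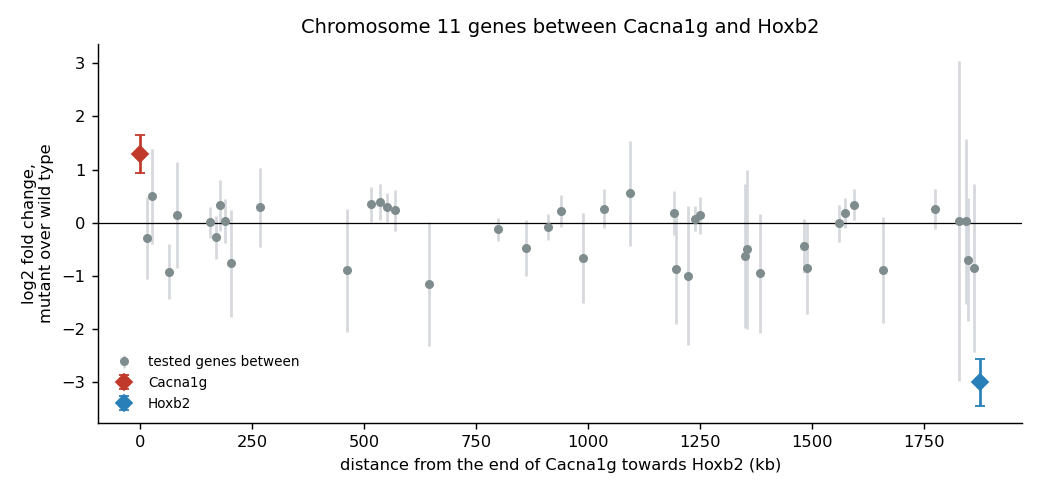
Log2 fold change, mutant over wild type, with 95% intervals, of Cacna1g, the 42 tested genes between it and Hoxb2, and Hoxb2, against distance from the end of Cacna1g (kb). Cacna1g at 1.29 and Hoxb2 at -3.00 passed the test, and none of the genes between them did, beside 0.359% of all tested genes.

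The genes whose profile lay closest to that of Cacna1g were sought among 9400 genes, by root mean square distance of centred log2 CPM over the 8 libraries. They were Tmem132b (distance 0.24), Gabrb1 (0.25), Epb41l4b (0.25), Slc6a17 (0.25) and Syt7 (0.27). Tmem132b had a log2 fold change of 1.52, Epb41l4b of 1.20 and Slc6a17 of 1.28, all past the threshold (edgeR adjusted p 0.00415, 0.00976 and 0.0193). The GABA-A receptor subunit gene Gabrb1 had 0.91 and the synaptotagmin gene Syt7 1.09, with edgeR adjusted p of 0.0982 and 0.056. The distance uses the same libraries as the comparison, so that genes with a like difference between the groups come first.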

How the data were processed

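The authors deposited 1 table of raw, unnormalised counts for Ensembl genes together with gene lengths (headed width, per the file headers). The submitters' processing notes name mm10 as the build and bcl2fastq 1.8.4. Aligner, counting tool, annotation release and strand setting: not given in the sources used here. Libraries were made from 2 ng RNA with poly-A and random primers and 14 PCR cycles, per the labels' protocols. Column headings gave the group and a running number but no replicate number, so columns were assigned to groups only and libraries carry the heading number.

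Positions came from GENCODE M21 on the same build. Counts were filtered with filterByExpr, scaled by TMM and tested in edgeR 4.0.16 (R 4.3.3) with the robust quasi-likelihood F test on 4 mutant against 4 wild type libraries, without covariates. P-values were adjusted by Benjamini-Hochberg over all 19494 tested genes. Standard errors were obtained from F, as the size of the log2 fold change over its square root, and 95% intervals use the fit's degrees of freedom per gene. The test was tried on simulated counts with 200 changed genes. It recovered 6% of them at a 1.5-fold change, 51.5% at 2-fold and 89% at 4-fold. Of the genes called, 7.69%, 3.74% and 7.77% were wrong. The simulated counts were drawn independently for each gene and library. They lack the variation shared among genes that the libraries show on their first principal component, so rates in the real data can differ. DESeq2 1.42.0 and limma 3.58.1 were alternatives. Exact permutation tests used scipy 1.17.1.

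Between any pair of libraries the chi-square statistic per gene was at least 16.5, so none agreed within sampling noise. Binomial intervals cover counting error only, because PCR copies are not independent molecules. The members and gene lists were chosen with earlier results of these data known. Genes named were the members, list genes past the threshold or else the 2 of smallest p, the beta, alpha-2-delta and gamma gene of highest CPM, the neighbours within 100 kb of Cacna1g and the 5 closest profiles among genes with an average log2 CPM (prior count 2) of at least 3, provisional gene names left out.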

Additional observations from a re-analysis of the deposited data

Results flagged for a closer look

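In 2 of 58 groups of 4 libraries examined for a single library far from the rest, the gap of that library to its neighbour exceeded Dixon's 95% critical value as a share of the group's range, and chance flags about 1 in 20 such groups. The gamma family gene Cacng5 stood at 1.44 CPM in wild type 6 and at most 0.715 CPM in the other wild types, a gap of 0.881 of the range. Fam155a, the Nalcn subunit, stood at 26.4 CPM in mutant 1 and at least 47.9 CPM in the other mutants, a gap of 0.859 of the range. Without that library Fam155a passed (log2 fold change 0.83, edgeR adjusted p = 0.0359), as did 544 of 20124 tested genes, against 70 of 19494 with it. No level of the 8 alpha-1 genes and no T-type share was set apart in this way.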

How the results depend on the processing

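Cacna1g kept its direction and passed in all 18 alternatives, with log2 fold changes of 1.09 to 1.41 and adjusted p of at most 0.0325. The number of all genes called was 70 and moved to 214 without a low-count filter, 497 with DESeq2, 233 with limma-voom with quality weights and 171 when the 3 libraries richest in dividing-cell markers were left out, the last chosen after seeing the data. Leaving out single libraries gave 26 genes (without mutant 4) to 544 (without mutant 1). The number of alpha-1 genes called was 1, and became 2 with DESeq2, which added Cacna1i (log2 fold change 1.16), and 1 to 2 with single libraries left out, where Cacna1a was added without wild type 7. With single libraries left out the log2 fold change ranged from 0.50 to 0.85 for Cacna1a, 0.09 to 0.27 for Cacna1b, -0.29 to -0.08 for Cacna1c, 0.21 to 0.51 for Cacna1d, -0.63 to 0.04 for Cacna1e, 1.16 to 1.41 for Cacna1g, 0.15 to 0.83 for Cacna1h and 0.84 to 1.48 for Cacna1i. The sign of Cacna1e turned, to 0.038, without wild type 7 alone. The mutant minus wild type difference in T-type share was 9.07 to 10.04 points with single libraries left out and 10.8 points with M21 lengths, also chosen after seeing the data. That change comes from the longer lengths of Cacna1c, Cacna1d and Cacna1e. Scaling by library size put the overall median log2 fold change at -0.07, against -0.01 with TMM. The cause of the other changes was not tested. No paired analysis was possible because the columns carry no replicate number, so the fit with the replicate number as a block was not run.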

Other observations

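The same search for the closest profiles was made for the other T-type genes. For Cacna1i it gave Mpped1 (distance 0.20), Camk2b (0.24), Galnt14 (0.27), Grin1 (0.27) and Col27a1 (0.27), with log2 fold changes between 0.80 for Grin1 and 1.19 for Mpped1, none of which passed by edgeR. Camk2b, a calcium and calmodulin-dependent kinase subunit, averaged 45.7 CPM in mutant and 20.8 CPM in wild type libraries. For Cacna1h it gave Grm3 (0.24), Shroom2 (0.25), Gria4 (0.28), Gucy1a1 (0.28) and Dab1 (0.31), with log2 fold changes between 0.36 for Gucy1a1 and 0.75 for Gria4, and none passed by edgeR. The 3 T-type genes had no gene in common among their 5 closest.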
